A study of Arabidopsis thaliana with 24 samples.

Results

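The baseline of germinating wild-type Arabidopsis thaliana seeds was described from 6 of the 24 arrays of the study, those of the Columbia wild type germinated with solvent only. These 6 were taken by their labels, and all 22746 probe sets of the array other than the manufacturer's controls were ranked by their mean signal on them. A probe set is a group of short oligonucleotides that together report 1 transcript or a few related ones. The labels describe the 6 arrays of each group as biological replicates. The other 18 arrays formed 3 groups of 6, namely the pkl mutant with solvent, the Columbia wild type with uniconazole and the pkl mutant with uniconazole. PICKLE, the gene affected in pkl, encodes a chromatin remodelling factor, and uniconazole inhibits gibberellin synthesis. All groups were germinated on solid mineral medium with vitamins under continuous light and with 0.01% methanol as solvent, which therefore is part of the baseline too, and the treated groups received 10 nM uniconazole. The sources used here give no age for the harvested seeds and no name for the pkl allele, and the transcript of PKL was not analysed here. RNA was extracted from seeds in bulk, so fewer cells of a type and less RNA per cell cannot be told apart in any value below.

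A dry Arabidopsis seed carries oil in oil bodies coated with oleosins, and storage proteins in vacuoles. In germination, lipases and peroxisomal beta-oxidation break the oil down, the glyoxylate cycle turns the carbon into precursors of sugar, and vacuolar proteases digest the storage proteins. The embryo grows by loosening and extending its cell walls, which expansins and xyloglucan-modifying enzymes carry out, while light starts the building of the photosynthetic apparatus. Late embryogenesis abundant proteins, which are made in the maturing seed and protect it during drying, are usually lost as the seedling establishes.

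The 6 wild-type arrays were alike in their distribution. Their median signals ranged from 315 to 356.3, and the Pearson correlation of log2 signals across probe sets lay between 0.971 and 0.981 over the 15 pairs of arrays, with 0 identical pairs. The share of an array's summed signal held by its own 100 brightest probe sets ranged from 9.49% to 11.01%. GEO's platform annotation gave 1 gene for 13513 probe sets, several genes for 503 and did not list 8730. Of the 13513, 1551 had a gene symbol and 11962 a locus code only, for which no function is given here. Probe sets differ in how strongly they bind, so the order below is one of brightness and not of transcript number. Among 131 genes with more than 1 probe set of which at least 1 was above the bacterial control level, the brightest probe set exceeded the dimmest by a median of 1.97-fold, by over 2-fold in 65 genes and by over 10-fold in 7. For SDH2-1, a subunit of mitochondrial succinate dehydrogenase, one probe set gave 9293 and the other 5.53, a difference of at least 153-fold.

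Most probe sets gave a signal above that of transcripts absent from the plant. The array carries 27 probe sets for bacterial transcripts, and the 95th percentile of their 162 values on the 6 arrays, 60.9, is called the bacterial control level here. Their values ranged from 1.1 to 157 with a median of 14.4. Of the 22746 probe sets, 5081 (22.3%) had a mean signal at or under that level. On the single arrays the share lay between 19.7% and 26.1%. On all 6 arrays 15609 probe sets (68.6%) were above the level and 2973 (13.1%) at or under it, and the remaining 4164 (18.3%) fell on both sides. The median of the mean signals was 334.9, the 90th percentile 3133 and the 99th percentile 18430 (range across the 6 arrays of the brightest single signal, 42444 to 52973). Signal was concentrated in few probe sets, since the 100 brightest held 10.2% of the summed mean signal, the 1000 brightest 45.1%, and the 11373 dimmest 3.77%.

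**Figure D1:**
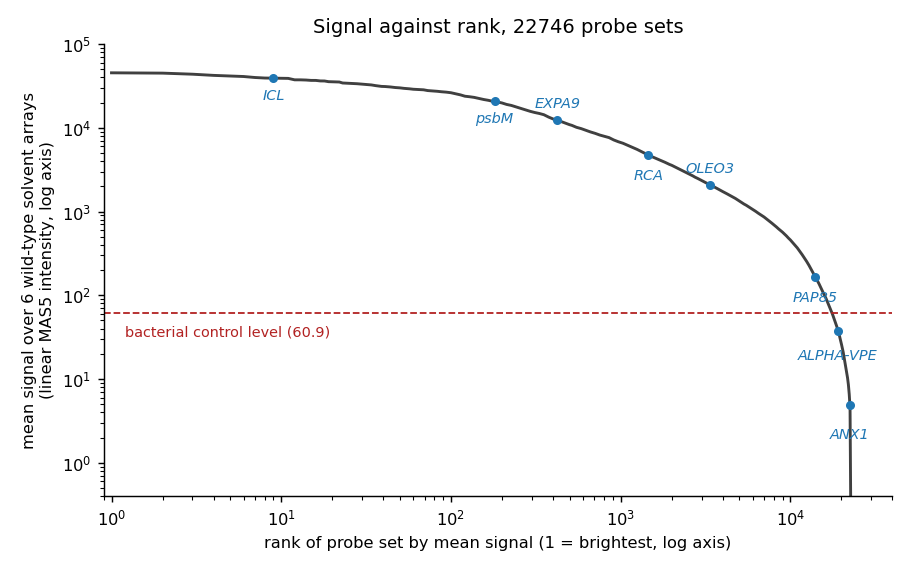
Mean signal over the 6 wild-type solvent arrays (linear MAS5 intensity, log axis) against the rank of the probe set (log axis), with 8 named genes as points and the bacterial control level of 60.9 as a dashed line. The curve falls slowly over the first 100 ranks, to 26192 at rank 100, and crosses the control level with 5081 probe sets at or beneath it.

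The share near background differed between kinds of annotated gene. Of 989 probe sets for annotated pseudogenes, 764 (77.2%) were at or under the bacterial control level, 94 were above it on all 6 arrays and 0 were among the 1000 brightest. Of 12443 probe sets for single protein-coding genes, 21.9% were at or under the level. All 69 probe sets for chloroplast-encoded genes were above it on all 6 arrays, with a median signal of 3080, and 17 of them were among the 1000 brightest. Names ending in _s_at or _x_at mark probe sets that can bind several transcripts, and 35.1% and 53.2% of these were at or under the level. The 100 brightest included 20 probe sets of the first kind and 0 of the second.

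The brightest named transcript was that of ICL, isocitrate lyase, an enzyme of the glyoxylate cycle. Its probe set ranked 9 of 22746, with a lowest signal of 35339, a median of 38573 and a highest of 44855 on the 6 arrays (mean 39080 ± 3630, SD, n = 6). Only 4 of the 100 brightest probe sets belonged to a single gene with a symbol, while 41 had a locus code only, 12 several genes and 43 no listed gene. The other 3 with a symbol were PYK10 (AT3G09260), a beta-glucosidase of endoplasmic reticulum bodies, with 32831 ± 3203, CP1 (AT4G36880), a cysteine protease, with 32445 ± 2364, and TUA6 (AT4G14960), an alpha-tubulin, with 27172 ± 1541 (SD, n = 6). These means rank 32, 34 and 84. Just inside rank 100 was AT3G09630 with 26192, and just outside was GAPC2, a cytosolic glyceraldehyde-3-phosphate dehydrogenase, with 26105, a gap far smaller than the SD of either (2197 and 2648).

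Among the 25 brightest probe sets with a single gene, 22 carried a locus code only. AT3G09200 led them at rank 6, with signals from 36348 to 45875 and a mean of 40891 ± 3413 (SD, n = 6). AT1G52300 followed with 36729 ± 2441 and AT3G49910 with 36217 ± 3577. The ranges of AT3G09200 and of ICL overlapped, but AT3G09200 gave the higher signal on each of the 6 arrays. The 25th, AT3G60770, had 28726 ± 2265. The files and tables used here give no function for these 22 genes.

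All gene lists below were made after the wild-type signals had been seen and hold only genes with a symbol or synonym, so list medians describe that choice and support nothing further. The median over all 1551 single-gene probe sets with a symbol was 537.7, against 334.9 over all probe sets. The 2 named storage and oil-body genes differed in signal. OLEO3 (AT5G51210), an oleosin, gave signals from 1598 to 2577 with a median of 2052 (mean 2068 ± 327, SD, n = 6), above 85.2% of all probe sets. PAP85 (AT3G22640), a vicilin-like storage protein, gave 134.1 to 223.3 with a median of 160.3 (mean 167 ± 30.2), below the median of all probe sets on every array but above the bacterial control level on all 6. They were the only 2 genes of this kind listed here.

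Transcripts of late embryogenesis abundant and dehydrin proteins covered a wide range, from 8633 to 23.7, with a median of 2742 over 13 genes. LEA18 (AT2G35300) was the brightest, with signals from 6993 to 9655 and a median of 9165 (mean 8633 ± 1202, SD, n = 6). AT2G44060 gave 7091 ± 696, AtLEA4-1 5958 ± 919 and LEA4-5 5944 ± 1020. A second set was far dimmer. LTI30, a dehydrin, gave 282.7 ± 96.0, COR15B, a chloroplast cold-response protein, 197.8 ± 102, and M17 150.2 ± 28.1. M10 (45.8 ± 26.7) and COR15A (23.7 ± 20.3) had means under the bacterial control level, with 2 and 1 of the 6 arrays above it.

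The 12 listed reserve mobilisation genes had a median of 4120, and 7 of them were in the brightest 10% of probe sets. ICL and CP1 led the list. PPDK, pyruvate orthophosphate dikinase, which feeds carbon from pyruvate into sugar synthesis, gave 10003 to 11626 (mean 10883 ± 673, SD, n = 6). The vacuolar processing enzymes, proteases that cut storage proteins, differed among themselves. DELTA-VPE gave 6586 ± 1144, BETA-VPE, the seed-type enzyme, 4893 ± 710 and GAMMA-VPE 1583 ± 181, whereas ALPHA-VPE gave 9.5 to 90.3 with a median of 27.4 and was above the bacterial control level on 1 array. DELTA-OAT, ornithine aminotransferase, gave 6527 ± 1137. AIM1, a beta-oxidation enzyme, gave 3347 ± 275, the oil-body lipase SDP1 2430 ± 182 and its relative SDP1-LIKE 1006 ± 128. The alpha-amylase AMY1, which degrades starch, was at 94.7 ± 45.5 and above the level on 5 of 6 arrays.

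**Figure D2:**
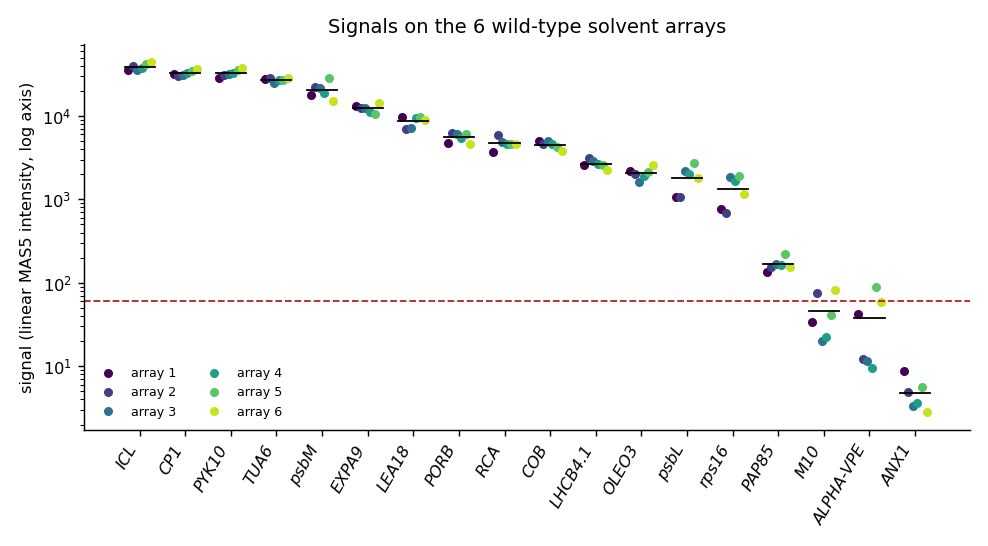
Signals of 18 genes on each of the 6 wild-type solvent arrays (linear MAS5 intensity, log axis). Each point is 1 array, the bar is the mean and the dashed line the bacterial control level of 60.9. ICL, CP1, PYK10 and TUA6 lie at 24672 or more on every array, whereas M10 and ALPHA-VPE scatter around the control level.

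Genes of central metabolism were mostly brighter than the median probe set. Over 28 probe sets for 27 genes of glycolysis and respiration the median was 2424, and 22 lay above 334.9. GAPC2 gave 22988 to 30035 (mean 26105 ± 2648, SD, n = 6) and TPI, triosephosphate isomerase, 21640 ± 1378. Mitochondrial members included CYTC-1, a cytochrome c, with 19302 ± 761, MPPBETA, a subunit of the processing peptidase and of the cytochrome bc1 complex, with 16248 ± 1143, and SDH1-1, succinate dehydrogenase, with 7319 ± 464. The cytosolic isocitrate dehydrogenase cICDH gave 16762 ± 765. In several gene families one copy was much brighter. IDH-V, a catalytic subunit of the mitochondrial isocitrate dehydrogenase, gave 9785 ± 591 and IDH-VI 1444 ± 116, while IDH-III and IDH-IV, with 18.1 ± 22.8 and 26.7 ± 19.4, were under the bacterial control level. SDH1-1 stood against SDH1-2 with 102.3 ± 35.6. The plastid phosphoglucomutase PGM, needed for starch synthesis, was at 346.4 ± 72.4. Genes encoded in the mitochondrial genome gave low signals, with a median of 277.9 over 22 probe sets for 15 genes and a highest mean of 1689 for ccb382. How fully mitochondrial RNA was captured was not tested.

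Few ribosomal protein genes carry a symbol in the tables used here. The nuclear list holds only 3, and others may stand among the genes with a locus code only, bright ones included. No level of cytosolic ribosomal proteins as a class is therefore given, and none is compared with the chloroplast list below. PGY1 (AT2G27530), a protein of the large cytosolic subunit, gave 19504 to 26290 with a median of 23856 (mean 23482 ± 2632, SD, n = 6) and ranked 127. AT1G77750, which the RefSeq table also calls RPS13, gave 4059 ± 520, and HLL, a ribosomal protein of the mitochondrial type, 690.9 ± 133. The 15 ribosomal protein genes encoded in the chloroplast had a median of 4836. They ran from rps3 with 13779 ± 2683 and rpl22 with 12654 ± 1176 down to rps15 with 446.3 ± 154 and rps14 with 310.8 ± 86.0, and all were above the bacterial control level on all 6 arrays. Among 12 genes for RNA polymerase subunits and translation factors the median was 1870. EIF4A-2, a translation initiation helicase, led with 14495 ± 1351 and NRPB9A, a small subunit of RNA polymerase II, was dimmest with 308.3 ± 64.8.

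Signals differed widely within the families of cell wall genes. The 19 expansins and expansin-like genes had a median of 280.1. EXPA9 (AT5G02260) gave 10627 to 14328 with a median of 12332 (mean 12300 ± 1346, SD, n = 6), and EXPA8 gave 3630 ± 272, EXPA20 2054 ± 152 and EXPA15 1569 ± 226. The 15 others lay between 841.6 for EXPA4 and 10.1 for EXPA21, and 4 of them were at or under the bacterial control level. Of the 10 xyloglucan endotransglucosylase/hydrolases, which cut and rejoin the xyloglucan tethers of the wall, XTH16 (7651 ± 658) and XTH19 (5665 ± 837) stood out from a median of 626.9, and XTH21 was dimmest with 9.37 ± 4.85. In the group of 7 pectin-modifying enzymes ATPMEPCRB gave 1564 ± 148 and the other 6 gave 28.7 to 82.9. GH9B7 (4560 ± 349) and GH9C2 (2099 ± 237) led the 15 genes of glycosyl hydrolase family GH9, which includes endoglucanases, whose median was 104.6, and 6 were at or under the level.

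Wall polysaccharide synthesis had a median of 482.4 over 14 genes. COB, COBRA, a protein that orients cellulose microfibrils in elongating cells, led with 3837 to 4978 (mean 4525 ± 428, SD, n = 6). CSLD2, a cellulose synthase-like protein, gave 2058 ± 408 and CSLC04, a xyloglucan glucan synthase, 1867 ± 247. IRX15 and IRX15-L, which act in xylan synthesis of secondary walls, were under the bacterial control level with 15.8 ± 8.25 and 58.1 ± 47.4. Tubulins, which build the microtubules that guide cellulose deposition, were bright. TUA6 gave 24672 to 28837, TUB9 7770.5 ± 496 and TUB1 6131 ± 519, whereas the actin gene ACT12 was at 7.05 ± 2.03 and ACT11 at 1919 ± 113.

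Most listed photosynthesis genes were in the brighter 50% of probe sets, 9 of 10 for photosystem, antenna and ATP synthase and 3 of 3 for carbon fixation. All 10 named nuclear genes for photosystem, antenna and chloroplast ATP synthase subunits were above the bacterial control level on all 6 arrays, with a median of 2114. ATPC1, the gamma subunit of the ATP synthase, gave 7961 to 9169 (mean 8487 ± 439, SD, n = 6) and its relative ATPC2 520.7 ± 86.4. PSB27, which serves the assembly and repair of photosystem II, gave 4649 ± 167. The 3 antenna genes of the CP29 type ordered as LHCB4.1 (2247 to 3175, mean 2689 ± 320), LHCB4.2 (409.2 to 644.5) and LHCB4.3 (246.2 to 381.6), with no overlap between neighbours in that order. PSAE-1 (1538 ± 92.5) and PSAN (807.1 ± 74.4) are subunits of photosystem I. In carbon fixation RCA, Rubisco activase, gave 3744 to 5855 (mean 4721 ± 678), the sedoheptulose bisphosphatase SBPASE 2790 ± 202 and the phosphoribulokinase PRK 1484 ± 162.

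Chlorophyll and haem synthesis had a median of 2311 over 11 genes. HEMB1 gave 5575 ± 438, PORB, a light-dependent protochlorophyllide reductase, 5543 ± 741, and GSA1, of the first steps of the pathway, 5215 ± 486 (SD, n = 6). The ranges of PORB and HEMB1 overlapped. HEMA2 gave 393.7 ± 113 and HEMA3 36.2 ± 29.7, the only 1 of the 11 under the bacterial control level. The 45 photosynthesis genes of the chloroplast genome had a median of 2464 and spanned 20627 to 222.3. psbM, a small subunit of photosystem II, gave 15240 to 28399 (mean 20627 ± 4593), petB, the cytochrome b6 subunit, 16941 ± 1515, and atpB, the beta subunit of the ATP synthase, 16617 ± 1790. Lower down were genes whose products are abundant in leaves. psbA, the D1 protein of photosystem II, gave 767.8 to 1592 (mean 1070 ± 278), and rbcL, the large subunit of Rubisco, 903.2 to 1130 (mean 998.4 ± 86.4). The lowest was psbN with 222.3 ± 44.2. These signals give brightness and not transcript number, and how fully chloroplast RNA was captured was not tested.

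**Figure D3:**
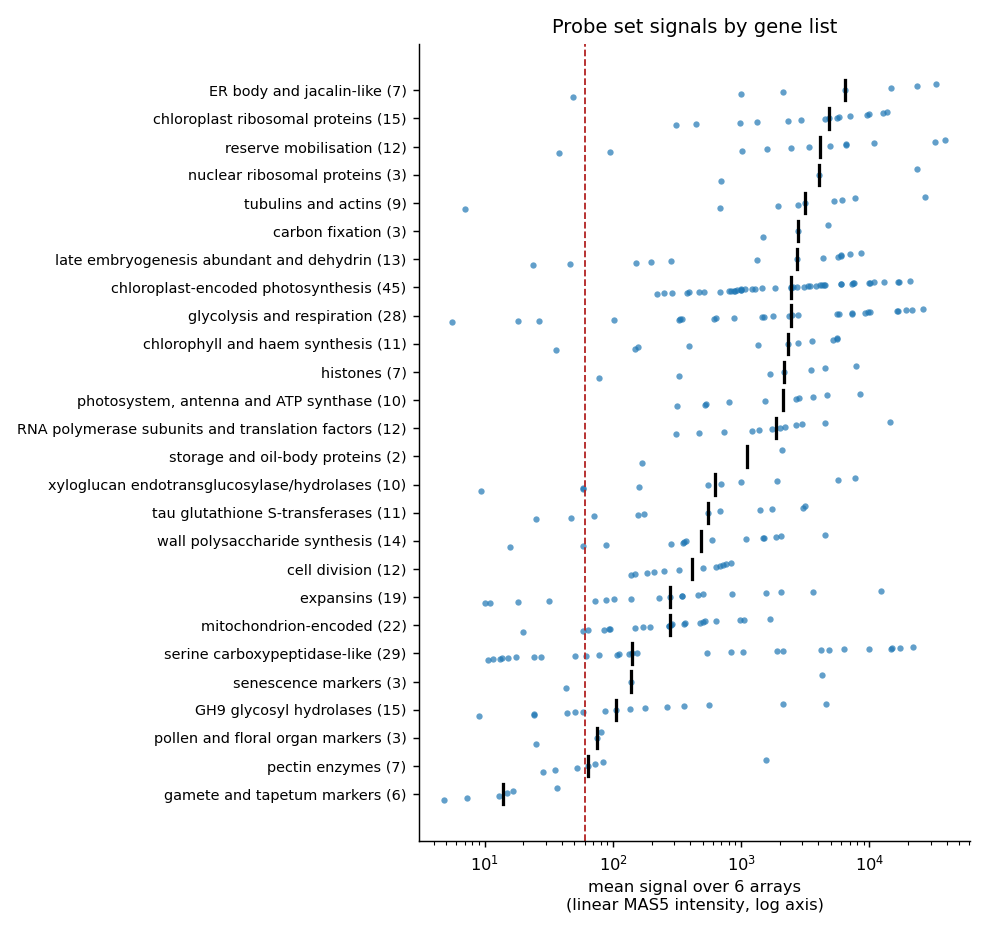
Mean signal over the 6 wild-type solvent arrays (linear MAS5 intensity, log axis) of every probe set in 26 gene lists, ordered by list median (black bars), with the number of probe sets in brackets and the bacterial control level of 60.9 as a dashed line. Reserve mobilisation (median 4120) and chloroplast ribosomal proteins (4836) lie towards the bright end, and gamete and tapetum markers (13.9) lie under the level.

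Markers of gametes, tapetum, pollen and floral organs were at or near background, whereas 1 of the 3 senescence markers was in the brightest 10% of probe sets. All 6 gamete and tapetum markers had means under the bacterial control level (4.85 to 36.7, median 13.9), among them MGH3, a histone of pollen sperm cells, and ANX1 and ANX2, receptor kinases of the pollen tube. The 3 pollen and floral organ markers gave 25.1 to 80.5. The senescence markers SAG101 and WRKY53 gave 139.2 ± 38.1 and 43.1 ± 21.99. SAG29, also known as the sugar transporter gene SWEET15, gave 3678 to 5486 (mean 4264 ± 714, SD, n = 6). Histone genes had a median of 2149, led by HTB4, a histone H2B gene, with 7851 ± 738. Genes of cell division lay lower, with a median of 416.4 and a range from 833.6 ± 72.9 for ICU2, the catalytic subunit of DNA polymerase alpha, to 138.6 ± 24.6 for BUBR1, of the spindle checkpoint.

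Endoplasmic reticulum body genes and serine carboxypeptidase-like genes were listed because bright members had been seen. PYK10 gave 28749 to 37494, JAL34, a jacalin-like lectin, 23360 ± 4113, NAI2, a structural protein of these bodies, 14592 ± 542, and NAI1, the transcription factor needed to form them, 2118 ± 506 (SD, n = 6). Of 29 serine carboxypeptidase-like genes, scpl20 (21850 ± 1420), scpl35 (17351 ± 1940), scpl29 (14948 ± 1780) and scpl44 (14723 ± 1371) were the brightest. The median of the listed family was 140.7, and 9 members were at or under the bacterial control level. The 11 tau-class glutathione S-transferases, detoxifying enzymes, had a median of 552.4, led by GSTU26 with 3158 ± 338 and GSTU20 with 3049 ± 149.

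The spread between the 6 wild-type arrays shrank as signal rose. The median coefficient of variation was 65.1% for probe sets at or under the bacterial control level, 28.1% from there to 300, 13.6% up to 1000, 10.3% up to 3000, 8.54% up to 10000 and 7.89% above. Among the 6270 probe sets with a mean of at least 1000 the median was 9.48%. The 49 chloroplast-encoded members of these had a median of 18.8%, and they made up 15 of the 50 most variable probe sets with a single gene, against 1.58% of all such probe sets. Chloroplast genes held 0.939%, 0.885%, 1.19%, 1.13%, 1.24% and 0.927% of the summed signal on arrays 1 to 6. The shares of probe sets at or under the bacterial control level on the same arrays were 26.1%, 24.7%, 19.7%, 22.3%, 20.3% and 22.5%. Arrays 3, 4 and 5 thus had the highest chloroplast share and the lowest share at or under this pooled level. A level drawn from each array's own bacterial controls was highest on array 3, at 78.28. Under these own levels the shares were 24.7%, 21.9%, 22.9%, 21.4%, 20.9% and 21.7% on arrays 1 to 6. Arrays 4 and 5 still had the lowest shares, but that of array 3 exceeded those of arrays 2 and 6. The pattern for array 3 therefore depends on the level used. The part of the chloroplast share and of the share near background in each other was not tested.

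Among single-gene probe sets with a mean of at least 1000 the most variable were AT1G05320 (380.3 to 1545, coefficient of variation 44.5%), the chloroplast ribosomal gene rps16 (683.8 to 1909, 40.7%), AT2G27580 (1052 to 2468, 37.5%), psbL, a small subunit of photosystem II (1071 to 2756, 36.2%), and AT2G39960 (2339 to 5649, 35.2%). For rps16 and psbL the 3 highest signals were those of arrays 3, 4 and 5. The least variable were DER2.2, a protein of endoplasmic reticulum quality control (1111 to 1167, 1.84%), AT1G77670 (1.96%), AT5G11760 (1.99%), AT1G33790 (2.16%) and MDH, a malate dehydrogenase (8797 to 9356, 2.35%).

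**Figure D4:**
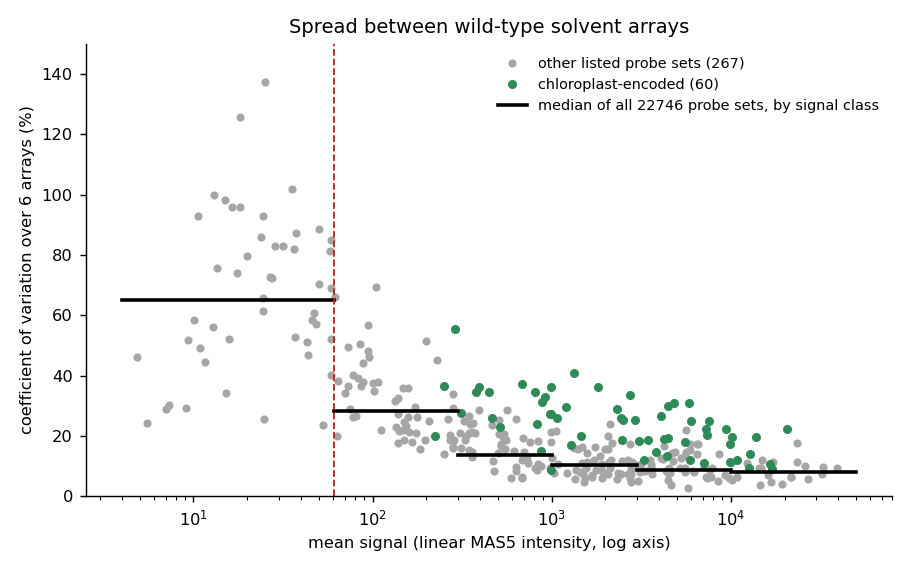
Coefficient of variation over the 6 wild-type solvent arrays (%) against mean signal (linear MAS5 intensity, log axis) for the listed probe sets, chloroplast-encoded ones in green and the others in grey. Black bars are medians of all probe sets in a signal class, from 65.1% at or under the bacterial control level (dashed line) to 7.89% above 10000, and most green points lie above them.

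The other 3 groups were set against this baseline to see where it holds. Each comparison uses the same 6 wild-type solvent arrays, so the 3 are not independent of each other. Changes are log2 differences of signal plus 16 from a limma fit across all probe sets, with adjusted p-values (Benjamini-Hochberg) and a threshold of 0.05. In pkl with solvent 2672 of 22746 probe sets (11.7%) passed, 6.78% higher and 4.97% lower. In wild type with uniconazole 3755 (16.5%) passed, 9.07% higher and 7.43% lower, and in pkl with uniconazole 7453 (32.8%), 17.6% higher and 15.1% lower. The median signal of an array was 364.6 ± 5.41 in pkl with uniconazole and 332.8 ± 16.2 in the baseline (SD, n = 6), which differed with p = 0.00216 in a two-sided exact permutation test (0.039 after adjustment over 18 comparisons). The log2 ratio of 3′ to 5′ GAPDH control probe sets, a sign of RNA quality, was 0.36 ± 0.06 in uniconazole-treated wild type and 0.26 ± 0.08 in the baseline (p = 0.026 in an exact permutation test, or 0.156 after adjustment), and its part in the calls was not tested. The median log2 change of all probe sets in pkl with uniconazole was 0.02 as deposited and -0.08 with arrays scaled to one median. With that scaling the split of calls was 1131 higher and 1437 lower in pkl with solvent, 1411 and 2187 in wild type with uniconazole, and 2722 and 5044 in pkl with uniconazole.

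The brightest transcripts were largely the same in all groups. Of the 100 brightest probe sets of the baseline, 94 were also among the 100 brightest in pkl with solvent, 93 in wild type with uniconazole, 86 in pkl with uniconazole and 85 in all 4 groups, and all 100 were within the first 200 of each group. Since they were picked for high wild-type signal, their changes are given as a description. The median log2 change of the 100 was -0.13, -0.08 and -0.20 in the 3 groups in that order, and -0.013, -0.0018 and -0.025 after quantile normalisation, and -0.18, -0.13 and -0.33 with arrays scaled to one median. In pkl with solvent 4 of the 100 were called lower, beside 4.97% of all probe sets. In wild type with uniconazole 5 of the 100 were called lower, beside 7.43%. Nothing is read from the 4 and the 5. In pkl with uniconazole 56 of the 100 were called lower as deposited, beside 15.1% of all probe sets. After quantile normalisation 13 of the 100 were called lower and 6 higher, beside 4032 lower and 3497 higher of all 22746 probe sets. With arrays scaled to one median 86 of the 100 were called lower, beside 5044 of all probe sets. The share of an array's summed signal held by its own 100 brightest was 10.2% ± 0.574 in the baseline and 9.26% ± 0.203 in pkl with uniconazole (SD, n = 6), with p = 0.00433 in the same exact test (0.039 after adjustment). ICL gave 36352 ± 2606, 37329 ± 4500 and 36255 ± 2426 in the 3 groups (SD, n = 6), overlapped the baseline in each and passed in none, with limma adjusted p from 0.34 to 0.632.

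Both storage and oil-body genes passed in all 3 comparisons, with limma adjusted p of 0.000211 or less. PAP85 rose from 167 ± 30.2 to 1000 ± 168 in pkl with solvent (log2 change 2.47 ± 0.14, SE) and to 2429 ± 387 in pkl with uniconazole (3.74 ± 0.14), with no overlap of arrays, and to 303.9 ± 75.8 in wild type with uniconazole (0.79 ± 0.14). OLEO3 fell to 1384 ± 208 in pkl with solvent (-0.57 ± 0.10) and rose to 3827 ± 440 and 4667 ± 286 in the 2 uniconazole groups (0.89 and 1.18, both ± 0.10). Of the 13 late embryogenesis abundant and dehydrin genes, 2 rose in pkl with solvent. That count was 4 without solvent pkl array 2, with only these 2 groups in the fit or with replicate numbers as a block. In wild type with uniconazole 6 rose and 1 fell, and in pkl with uniconazole 8 rose and 1 fell. Of all probe sets, 6.78%, 9.07% and 17.6% were called higher in the 3 groups, and 7.43% and 15.1% lower in the last 2. Median log2 changes of the 13 were 0.12, 0.37 and 0.67 against 0.00, -0.02 and 0.02 over all probe sets. LEA18, the brightest, gave 9295 ± 627, 14800 ± 1873 and 18984 ± 2082 and passed in both uniconazole groups. M10, at background in the baseline, rose to 268.9 ± 79.1 in pkl with solvent and 431.2 ± 131 in pkl with uniconazole, at least 4.42-fold and 7.08-fold.

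Of the 12 reserve mobilisation genes 1 rose in pkl with solvent, ALPHA-VPE, to 135.6 ± 48.0, at least 2.23-fold, beside 6.78% of all probe sets called higher. That count was 2 without solvent pkl array 2 or solvent wild-type array 3, with a filter on low signal, after quantile normalisation or with replicate numbers as a block, and 3 with only these 2 groups in the fit. In wild type with uniconazole 1 rose, GAMMA-VPE (log2 change 0.53), beside 9.07% of all probe sets. There 0 fell, or 1 without uniconazole wild-type array 5 or 6. In pkl with uniconazole 5 rose and 3 fell, against 32.8% of all probe sets called, and after quantile normalisation 1 fell. Of the 28 probe sets for glycolysis and respiration 1 rose and 3 fell, 4 rose and 5 fell, and 5 rose and 9 fell in the 3 groups in that order, beside 11.7%, 16.5% and 32.8% of all probe sets called. The 1 was 2 without solvent pkl array 5 or solvent wild-type array 5 or 6, and the 4 became 2 with arrays scaled to one median, after quantile normalisation, or with only these 2 groups in the fit. PGM rose in all 3, from 346.4 ± 72.4 to 650 ± 94.6, 867.8 and 1638 ± 91.7. ACLA-1, a subunit of ATP citrate lyase, which makes cytosolic acetyl-CoA, fell from 7364 ± 441 to 5369 ± 119 in pkl with solvent and to 4344 ± 591 in pkl with uniconazole.

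EXPA9 fell to 8163 ± 866 in pkl with solvent (log2 change -0.59 ± 0.11, SE) and to 5263 ± 678 in pkl with uniconazole (-1.23 ± 0.11), with no overlap with the baseline in either. EXPA8 gave 4333 ± 464 in pkl with solvent, where it did not pass, and fell to 2108 ± 556 and 1813 ± 268 in the uniconazole groups. XTH16 fell from 7651 ± 658 to 6099 ± 288, 4255 ± 308 and 2966 ± 378. Of the 19 expansins 3 rose and 1 fell, 3 rose and 3 fell, and 4 rose and 3 fell in the 3 groups in that order, that is 4, 6 and 7 called beside 11.7%, 16.5% and 32.8% of all probe sets, and nothing is read from these counts. Of the 10 xyloglucan endotransglucosylase/hydrolases 2 rose and 2 fell, 1 rose and 4 fell, and 5 fell, and without uniconazole pkl array 4 1 rose in the last. Of all probe sets, 6.78%, 9.07% and 17.6% were called higher in the 3 groups, and 4.97%, 7.43% and 15.1% lower. Of the 14 wall polysaccharide synthesis genes 0, 2 and 6 fell, beside 4.97%, 7.43% and 15.1% of all probe sets, and 0 rose. The 0 in pkl with solvent was 2 with arrays scaled to one median, after quantile normalisation or without solvent pkl array 3, and 1 without solvent wild-type array 1. The 2 was 1 with no variance trend or without solvent wild-type array 1, 3 or 4 or uniconazole wild-type array 2 or 4, and 1 rose there without solvent wild-type array 3. Among 9 tubulins and actins 1, 4 and 7 fell, beside 4.97%, 7.43% and 15.1% of all probe sets. The 4 became 2 without wild-type solvent array 3 or without uniconazole wild-type array 2. In pkl with uniconazole ACT11 fell to 1099 ± 238 (-0.82 ± 0.12) and TUA6 to 21139 ± 1306 (-0.36 ± 0.06). The carboxypeptidase-like gene scpl44 fell from 14723 ± 1371 to 6544 ± 971, 6222 and 1452 ± 169, with no overlap with the baseline.

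Nuclear photosynthesis genes stood on either side of the baseline in different groups. Of the 10 photosystem, antenna and ATP synthase genes 2 fell in pkl with solvent (4 with only these 2 groups in the fit). In wild type with uniconazole 8 rose, and in pkl with uniconazole 6 rose, where 3 did so with arrays scaled to one median. Of all probe sets, 4.97% were called lower in pkl with solvent, and 9.07% and 17.6% higher in the 2 uniconazole groups. LHCB4.2 gave 230 ± 52.5 in pkl with solvent (log2 change -1.17 ± 0.20, SE) and 1016 in wild type with uniconazole (0.92 ± 0.20), against 533.1 ± 104 in the baseline. Of the 3 carbon fixation genes 1 rose in pkl with solvent, 3 in wild type with uniconazole and 2 in pkl with uniconazole, and 0 fell. Of all probe sets, 6.78%, 9.07% and 17.6% were called higher. The 0 in pkl with solvent was 1 with arrays scaled to one median, a filter on low signal or replicate numbers as a block. It was also 1 without solvent pkl array 2 or 3 or solvent wild-type array 1. RCA rose to 6374 ± 964 in wild type with uniconazole. Of 11 chlorophyll and haem synthesis genes 4 fell in pkl with solvent and 3 in pkl with uniconazole, beside 4.97% and 15.1% of all probe sets. In wild type with uniconazole 3 rose, beside 9.07% of all probe sets. There 1 rose with arrays scaled to one median and 6 without uniconazole wild-type array 5. PORB fell to 2365 ± 548 in pkl with solvent (-1.24 ± 0.15). Chloroplast-encoded photosynthesis genes rose in 12, 3 and 35 of 45 in the 3 groups, beside 6.78%, 9.07% and 17.6% of all probe sets, and fell in 0. Nothing is read from the 3 in wild type with uniconazole. That count was 1 without solvent wild-type array 6 or uniconazole wild-type array 3 or 5, and 5 without uniconazole wild-type array 1. It was 6 without solvent wild-type array 5 or uniconazole wild-type array 2, and 7 with replicate numbers as a block. Of the 15 chloroplast ribosomal protein genes 1, 1 and 9 rose, beside 6.78%, 9.07% and 17.6% of all probe sets. The 1 in pkl with solvent was 2 with a filter on low signal or without solvent pkl array 1 or 2 or solvent wild-type array 4, 3 after quantile normalisation or without solvent wild-type array 3 or 5, and 4 with replicate numbers as a block. The 1 in wild type with uniconazole was 2 after quantile normalisation, and 0 with arrays scaled to one median or without solvent wild-type array 4 or 6 or uniconazole wild-type array 5 or 6. ndhG, a subunit of the chloroplast NADH dehydrogenase-like complex, rose from 682.8 ± 255 to 2338 ± 605 in pkl with solvent and 2816 ± 471 in pkl with uniconazole, with no overlap in either. The chloroplast share of summed signal was 1.05% ± 0.153 in the baseline, 1.13% ± 0.103, 1.16% ± 0.169 and 1.43% ± 0.172 (SD, n = 6), and it varied between baseline arrays as given above. Its part in these calls was not tested.

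**Figure D5:**
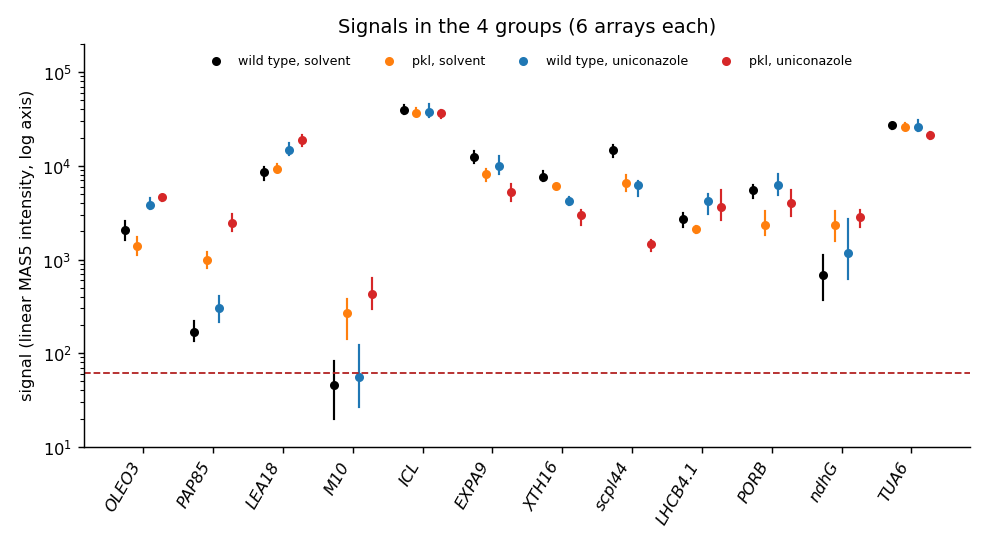
Signals of 12 genes in the 4 groups (linear MAS5 intensity, log axis), points being means and lines running from the lowest to the highest of 6 arrays, with the bacterial control level of 60.9 dashed. ICL overlaps between all groups, PAP85 climbs from 167 in the baseline to 2429 in pkl with uniconazole, and scpl44 drops from 14723 to 1452.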

How the data were processed

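Total RNA of germinating seeds had been hybridised to Affymetrix ATH1 arrays, 6 for each of 4 groups, and the labels gave the group of each array. The deposited table holds linear intensities per probe set made with MAS5, per the submitters' processing notes, with version and settings not given in the sources used here. After trimming 2% of values at each end, the mean of every array was the same in the deposited intensities, so the arrays had been scaled to it. All value columns belonged to the 24 arrays. Probe sets were named through GEO's platform annotation and a RefSeq gene table (assembly TAIR10.1), which held 13436 of the 13513 single-gene probe sets. No probe or promoter sequence was used here.

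The 64 manufacturer's control probe sets were left out of ranks and tests. Signals are means and SD on the deposited linear scale, and the number of arrays limits their precision. Signals of saturated spots could not be told from the deposited values. Comparisons with the other groups used log2(signal + 16) and 1 limma fit over all 24 arrays (limma 3.58.1 in R 4.3.3, lmFit and eBayes with a variance trend), which understates changes of dim probe sets. P-values were adjusted over 22746 probe sets within a comparison, and the fit was tested on simulated data. Array-level measures were compared by exact permutation tests. A fold against a mean at or under the bacterial control level is the brighter mean over that level.

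The members and lists were chosen with earlier results of these data known. The lists first written as name patterns were replaced by 26 hand-made lists after the annotation and the wild-type signals had been seen, because the patterns matched unrelated genes, and only genes with a symbol could be listed. Named genes were the 25 brightest with a single gene, the 3 brightest and the dimmest of each list (all of a list of up to 8), the 5 highest and 5 lowest coefficients of variation at a mean of at least 1000, and up to 4 called members per list and comparison by size of change. Further list members were named after their values were seen. Alternatives were other control percentiles and fixed levels, medians over arrays, other scalings and offsets, a filter on low signals, no variance trend, fits of 2 groups, replicate numbers as a block, and leaving out each array.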

Additional observations from a re-analysis of the deposited data

Results flagged for a closer look

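On the 6 wild-type solvent arrays, 16 of 182 values examined (8.79%) had 1 array set apart from the rest, in that its gap to the nearest array exceeded Dixon's 95% critical share of the range of all 6. A chance rate of about 1 in 20 holds for independent, normally distributed values. The 182 included genes picked for their spread on these same arrays, signals near background, and AT1G77750 both as a gene and as a list median. Nothing is therefore read from the share. The ratio of gap to range is given for each of the 16. Among bright genes it was 0.706 for AT5G56710 (36525 on array 6, the next 30940), 0.678 for cICDH (15297 on array 1, the next 16725), 0.677 for HTB1 (4952 on array 5, the next 4503), 0.803 for CSLD2 (2869 on array 2, the next 1984) and 0.658 for AT1G77750 (3074 on array 3, the next 4030). AT1G77750 is also the middle member of the 3 nuclear ribosomal protein genes, so the list median has the same 0.658. For AT2G27580 it was 0.633 (2468 on array 4, the next 1572), and for AT1G77670 it was 0.705 (3624 on array 1, the next 3768).

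In dim genes the ratio was 0.717 for NRPB9A (434.7 on array 1, the next 307.9) and 0.778 for HIS1-3, a linker histone gene (16.3 on array 1, the next 82.3). At or near background it was 0.789 for EXPA21, 0.691 for ACT12, 0.871 for SPL (95 on array 5, the next 16.9), 0.646 for AMS, 0.761 for ANX2 and 0.691 for scpl16. The outlying array was 1, 2, 3, 4, 5 or 6 in different genes.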

How the results depend on the processing

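The share of probe sets at or under background, 22.3%, depends on where background is drawn. It was 19.3% with the 90th percentile of the bacterial controls, 26.2% with the 99th, 13.1% when a probe set had to lie under the level on all 6 arrays, and 7.77%, 30.03% and 41.3% at fixed signals of 16, 100 and 200. The share of summed signal in the 100 brightest was 17.7% instead of 10.2% when only probe sets with a single gene entered. The median of gamete and tapetum markers was 9.75 with medians over arrays in place of means, and 10.43 to 15.31 with 1 array left out, all under the bacterial control level. The other list medians moved by less than the SD between arrays under every alternative run. Leaving out 1 array gave shares of 21.8% to 23.1% near background and of 9.99% to 10.3% in the 100 brightest, and counts of calls from 2212 to 2765 in pkl with solvent, 3200 to 3855 in wild type with uniconazole and 6940 to 7338 in pkl with uniconazole. With the replicate number as a block the counts were 3037, 4128 and 7775. Deviations of same-numbered arrays correlated with the baseline at 0.038 to 0.131, -0.066 to 0.119 and -0.078 to 0.075, in the same order of groups. The same-numbered array was the closest match for 4, 3 and 0 of the 6 baseline arrays. Whether the numbers pair the arrays is not settled by these values. PYK10, called lower in pkl with uniconazole, changed sign to 0.0010 on the log2 scale after quantile normalisation, and the cause was not tested. For 190 calls of single genes, 3600 of 3800 values under alternatives stayed past the threshold, 199 did not, and 1 changed sign. These calls were up to 4 per list and comparison, taken by size of change, so the counts do not describe calls in general. Among probe sets near background the spread between arrays, 65.1%, limits what can be said of their order. The quantile normalisation of list medians was added after seeing the data.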

Other observations

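The platform annotation used here left 43 of the 100 brightest and 554 of the 1000 brightest probe sets unlisted, although it left 8730 of all 22746 unlisted. The unlisted probe sets had a median signal of 512 and 16.1% of them were at or under the bacterial control level, whereas those with a locus code only had a median of 223.7 and 27.3%.

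Several bright transcripts with a symbol belonged to none of the lists, and those given here were chosen after their values were seen. SAMDC, an enzyme of polyamine synthesis, gave 19871 ± 1919 (SD, n = 6). APA1, an aspartic protease, gave 17389 ± 1262. TIL, a temperature-induced lipocalin, gave 16256 ± 1301 and LCR69, a defensin-like protein, 15459 ± 1112. GME, an epimerase of vitamin C synthesis, gave 14302 ± 788, RALFL34, a signalling peptide of the RALF family, 14157 ± 1812, and Cpn60beta2, a plastid chaperonin subunit, 13336 ± 1000.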
